A study of Mus musculus with 24 samples.

Results

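The 10 genes belong to the tumor necrosis factor (TNF) pathway and were followed across cultured mouse microglia and astrocytes. They encode the cytokine TNF (*Tnf*), its receptors (*Tnfrsf1a* and *Tnfrsf1b*), adaptors and ubiquitin ligases that act at those receptors (*Traf1*, *Traf2*, *Birc2* and *Birc3*), inhibitors of the signal (*Tnfaip3* and *Tnip1*) and *Tnfaip2*, a gene named for its induction by TNF. They were picked by name, and all 10 were found among the 24411 genes measured. The study asked whether glia from SOD1G93A mice, a model of amyotrophic lateral sclerosis, differ from wild-type (WT) glia at rest and after an inflammatory stimulus. RNA of 21 cultures was sequenced in bulk, 3 in each of 7 conditions. Astrocytes were immunopanned with an antibody to HepaCAM from the forebrain cortex at postnatal day 5, an age that the methods give for WT mice, after microglia (by CD45), endothelial cells (by the lectin BSL I) and oligodendrocyte lineage cells (by O4) had been panned out. Microglia were collected from whole brain at postnatal days 7 to 10 by magnetic sorting for CD11b. Both were kept without serum, in different media. Quiescent cultures received PBS, activated astrocytes received a mixture of C1q (400 ng/ml), TNFα (30 ng/ml) and IL-1α (3 ng/ml), and activated microglia received lipopolysaccharide (LPS, 50 ng/ml). WT and SOD1G93A astrocytes were each studied in both states. WT microglia were studied in both states and SOD1G93A microglia after LPS, while quiescent SOD1G93A microglia were not analysed here. The SOD1G93A line carries a transgene of mutant human SOD1 under the human promoter and had been bred into C57BL/6J for 8 generations. The labels do not say whether the 3 cultures of a condition came from separate animals, so p-values measure the spread between these cultures.

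TNF is made as a membrane protein and released by cleavage. TNFR1, encoded by *Tnfrsf1a*, is found on most cells, carries a death domain and assembles a complex in which TRAF2 and the ligases cIAP1 (*Birc2*) and cIAP2 (*Birc3*) attach ubiquitin chains, which leads to NF-κB activation or, where that fails, to cell death. TNFR2, encoded by *Tnfrsf1b*, lacks a death domain and binds TRAF2 directly, and A20 (*Tnfaip3*) with its partner ABIN1 (*Tnip1*) edits the ubiquitin chains and limits the signal. In brain, microglia are the main source of TNF, and TNF is among the microglial factors known to turn astrocytes reactive.

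Markers of the labelled cell type were the higher ones in both cell types. All 10 microglia markers examined were called higher in quiescent WT microglia than in quiescent WT astrocytes, and all 9 astrocyte markers tested were called lower (the tenth, *S100b*, was too low to test). *Csf1r*, the receptor that keeps microglia alive, was the most abundant microglia marker in quiescent microglia, at 2574 CPM (reads of a gene scaled to library depth). *Slc1a3*, a glutamate transporter, and *Hepacam*, the adhesion protein used for panning, led the astrocyte list in quiescent WT astrocytes, at 2386 and 542 CPM. Microglia markers were low but present in the astrocyte cultures, with summed levels of 154 to 359 CPM in the 12 libraries against 10014 to 10560 in quiescent microglia, and none of the 10 was at 0 in any library. Oligodendrocyte lineage genes were present as well, led by *Olig1* and *Olig2* at 1799 and 868 CPM in quiescent WT astrocytes, above *Hepacam*, and by *Cspg4* at 1229 CPM in quiescent WT microglia. Depth was 2016139 to 11570122 reads on genes per library, with a median of 5098168. The shallowest library was replicate 1 of quiescent WT astrocytes. Replicate 3 of SOD1G93A LPS microglia stood apart from its group: 852 genes lay more than 2-fold from both other libraries of the group, against 233 and 250 for those libraries, and its summed microglia markers were 5268 CPM against 3699 and 3572. Replicate 2 of quiescent WT microglia, with 2550560 reads, had 530 such genes against 160 and 152. Replicate 1 of quiescent WT astrocytes had 316 against 112 and 148.

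Levels that can be set beside one another between genes and conditions are given as RPKM, the reads of a gene scaled by its exon length in kilobases and by the gene reads of the library; they were calculated from the recovered reads because each deposited table was normalized separately. Scaling by total reads and the median-of-ratios scaling of all 21 libraries together (jointly scaled counts) gave different orders of the cell types for *Tnfrsf1a*, *Tnfaip2* and *Tnfaip3*, and both are given for these genes. Other distances between cell types also depend on the scaling. In RPKM *Tnf* was highest in WT LPS microglia at 585 ± 55.2 RPKM (SD, n = 3) and in SOD1G93A LPS microglia at 565 ± 40.4, whose ranges overlapped. Quiescent WT microglia followed at 26.7 ± 1.98, and the 4 astrocyte conditions had means between 3.04 and 6.14 with each neighbour in that order overlapping the next. Microglial *Tnf* therefore lay above astrocyte *Tnf* in every library.

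The receptors had different orders. *Tnfrsf1b* followed the order of *Tnf* among microglia, with 896 ± 48.9 RPKM in WT LPS, 858 ± 150 in SOD1G93A LPS and 42.6 ± 1.78 in quiescent WT microglia, while the astrocyte means were 5.16 to 8.39, with neighbours in the order overlapping. *Tnfrsf1a* spanned a far smaller range. In RPKM it was highest in activated astrocytes, at 94.2 ± 6.94 RPKM in SOD1G93A and 93.5 ± 3.05 in WT, then 61.5 to 64.4 in the 3 microglia conditions, and lowest in quiescent astrocytes at 39.1 ± 4.04 and 38.9 ± 2.15. The ranges were apart between these 3 tiers, and neighbours in the order overlapped within each. On the joint scale *Tnfrsf1a* was instead highest in LPS microglia (1169 in WT and 1124 in SOD1G93A), followed by activated astrocytes (1056 in SOD1G93A and 1023 in WT) and quiescent WT microglia (1019), so this order depends on the scaling. Per length, the ratio of *Tnfrsf1b* to *Tnfrsf1a* was 0.639 to 0.704 in the quiescent microglia libraries and 10.9 to 15.8 in the 6 LPS libraries. In the 12 astrocyte libraries this ratio was 0.0499 to 0.223. TNFR2 transcripts thus outnumbered TNFR1 transcripts in LPS microglia and in no other condition.

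Among adaptors and ligases, *Traf1*, which joins TRAF2 and the cIAP ligases at TNF family receptors, had 62.7 ± 8.13 RPKM in WT LPS and 45.7 ± 13.3 in SOD1G93A LPS microglia. Their ranges were apart, as were those of *Tnfaip3*, *Tnip1* and *Birc3* between these groups. With the deposited scaling 9.09% of genes tested were apart in this direction. Replicate 3 of SOD1G93A had 30.4 RPKM of *Traf1*, against 52.8 and 54.0, and the difference did not pass its test, given below. For *Traf1* the other 5 conditions had means of 0.248 to 0.536, each overlapping its neighbour. *Traf2* had its highest means in LPS microglia, at 13.9 ± 1.45 in WT and 11.7 ± 2.60 in SOD1G93A. Activated astrocytes followed at 8.975 ± 0.303 in WT, which overlapped SOD1G93A LPS microglia, and 7.39 ± 0.559 in SOD1G93A. The 3 quiescent conditions had *Traf2* means of 4.21 to 4.52. *Birc2* and *Birc3* are neighbouring paralogs, and their orders were unlike. *Birc3* had 38.9 ± 1.02 RPKM in WT LPS microglia, 4.78 ± 0.250 in quiescent WT microglia, 3.00 ± 0.271 in activated and 0.286 ± 0.182 in quiescent WT astrocytes. *Birc2* had its 4 highest means in astrocytes, 6.45 to 8.40 RPKM with overlapping ranges, and its lowest in quiescent WT microglia at 2.12 ± 0.316. Of the inhibitors, *Tnfaip3* reached 115 ± 9.26 RPKM in WT LPS microglia, had almost equal means in activated WT astrocytes (6.85) and quiescent WT microglia (6.83, but 209 and 301 on the joint scale), and was lowest in quiescent WT astrocytes at 1.02 ± 0.472. *Tnip1* ran from 108 ± 2.43 in WT LPS microglia to 7.34 ± 0.798 in SOD1G93A quiescent astrocytes. In RPKM *Tnfaip2* had its highest mean in activated WT astrocytes (115 ± 5.64), above LPS microglia of either genotype (101.2 ± 2.22 in SOD1G93A and 97.4 ± 4.84 in WT). On the joint scale the order was reversed, with 3556 and 3429 in SOD1G93A and WT LPS microglia and 2428 in activated WT astrocytes.

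**Figure D1:**
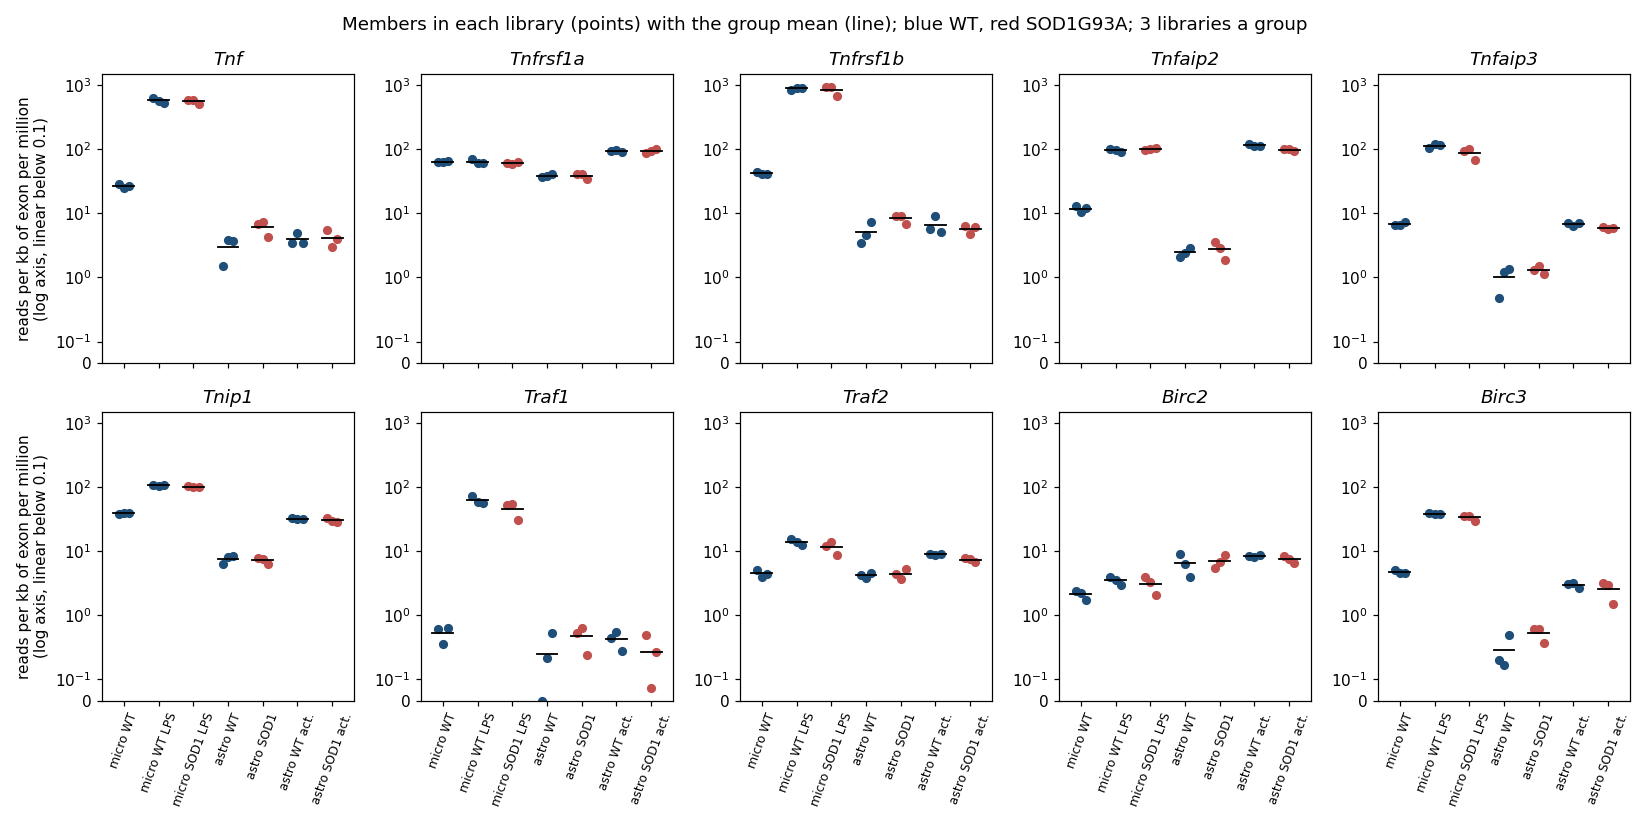
Level of each gene in every library, in RPKM on a log axis that is linear below 0.1, for microglia (micro) and astrocytes (astro), with blue points for WT, red for SOD1G93A (written SOD1 on the axis), "act." for activated and lines for group means of 3 libraries. *Tnf* (means 585 and 565) and *Tnfrsf1b* (896 and 858) are highest in LPS microglia and lowest in astrocytes, whereas *Tnfrsf1a* is highest in activated astrocytes on this scale.

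The LPS response was then measured in WT microglia, in normalized counts (reads divided by a library size factor). A gene was called when limma gave an adjusted p under 0.001 and a change of over 2-fold, with folds on the scale of log2(normalized count + 1). Of the 10 genes, 8 rose by this rule, where 10.2% of the 10866 genes tested rose, and 0 fell, where 10.6% fell. *Tnf*, the ligand, had 242, 217 and 232 normalized counts in quiescent cultures and 6303, 5907 and 5345 after LPS. All LPS libraries were far above all quiescent ones, a 25.3-fold rise (log2 4.66, SE 0.09, adjusted p = 6.4e-11, limma).

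The receptors split in this comparison. *Tnfrsf1b* had 879, 852 and 834 normalized counts in quiescent microglia and 19118, 22134 and 21462 after LPS. The groups were widely separated and the rise was 24.4-fold (log2 4.61, SE 0.08, adjusted p = 3.8e-11, limma). *Tnfrsf1a* had 848, 900 and 886 in quiescent microglia and 1089, 983 and 955 after LPS. Each LPS library was above each quiescent one, yet the difference was 1.15-fold and did not pass either limit (adjusted p = 0.066, limma). The 95% interval of this difference ran from 0.01 to 0.39 on the log2 scale. The separation depended on the scaling: with libraries scaled by total reads the difference was -0.02 (adjusted p = 0.88, limma).

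*Traf1* had the largest fold of the 10 genes. Its quiescent libraries had 27.9, 16.8 and 29.5 normalized counts and its LPS libraries 3789, 3248 and 3073. From near the low end of detection it rose 134-fold (log2 7.07, SE 0.19, adjusted p = 5e-10, limma). *Traf2*, the adaptor shared by both receptors, went from 133, 109 and 120 to 467, 448 and 387 normalized counts, a 3.57-fold rise with no overlap. The paralogous ligases differed in size of response. *Birc3* had 131, 124 and 123 normalized counts before and 1192, 1189 and 1182 after LPS, a 9.37-fold rise with little spread between cultures. *Birc2* had 55.8, 54.7 and 42.4 before and 109, 102 and 82.0 after LPS, 1.90-fold higher. The groups of *Birc2* did not overlap, and it passed an adjusted p under 0.05 (0.001, limma) but not the 2-fold limit. With that weaker rule 9 of the 10 genes were higher, where 28.6% of all genes tested were.

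The inhibitors and *Tnfaip2* rose. *Tnfaip3* had 246, 255 and 278 normalized counts in quiescent microglia and 4516, 5554 and 5189 after LPS, a 19.5-fold rise (adjusted p = 1.7e-10, limma). *Tnip1* had 709, 757 and 741 before and 2330, 2341 and 2323 after LPS, a 3.17-fold rise. *Tnfaip2* had 331, 286 and 317 before and 3041, 3034 and 2810 after LPS, a 9.50-fold rise. For each of the 3 genes all LPS libraries were above all quiescent libraries. The share of all genes tested whose groups were apart is not given for the activation comparisons. At an adjusted p under 0.05 in either direction, 6185 of the 10866 genes tested passed after LPS (limma). *Tnfaip2* overlaps the antisense gene *Gm40578*, and *Tnip1* and *Traf2* each overlap a processed pseudogene on the opposite strand (*Gm12230* and *Gm13433*). The libraries were strand-specific, but whether counting used strand is not given in the sources used here, so reads of these pairs cannot be told apart with certainty. In bulk cultures fewer cells of a type and less RNA per cell cannot be told apart either. The summed microglia markers were 3263 to 3318 CPM in WT LPS libraries, under the quiescent values, and 7 of the 10 markers were called lower and 0 higher. Of 9 astrocyte markers tested 2 were called higher and 0 lower, and of 3 endothelial genes tested 2 were called higher and 1 lower. Summed oligodendrocyte lineage genes went from 1340 to 106 CPM (mainly *Cspg4*), with 2 of 4 tested called lower and 2 not past an adjusted p under 0.05. Summed pericyte and fibroblast genes went from 7.46 to 18.3, with 1 of 4 tested called higher and 2 not past that limit. Summed other myeloid genes went from 6.28 to 13.4, with 2 of 3 tested called higher and 1 lower at an adjusted p under 0.05. The part of these shifts in the values above was not tested.

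SOD1G93A LPS microglia were also tabulated against the same quiescent WT microglia, so this comparison shares its control libraries with the WT response and mixes genotype with activation. In it 8 of the 10 genes were called higher, against 8.22% of 10921 genes tested, and 9 passed an adjusted p under 0.05 in that direction, against 27.8%. Without replicate 2 of quiescent WT microglia *Traf2* lost its call (log2 1.49, adjusted p = 0.0013, limma). *Birc2* passed only the weaker rule (0.72, adjusted p = 0.039, limma), and not with scaling by total reads. Without replicate 3 of SOD1G93A LPS microglia *Birc2* was called (1.00, adjusted p = 0.00025, limma). Side by side with the WT values, the log2 differences were 4.62 for *Tnf* (WT 4.66), 4.54 for *Tnfrsf1b* (WT 4.61) and 6.58 for *Traf1* (WT 7.07). They were 3.90 for *Tnfaip3* (WT 4.28), 3.31 for *Tnfaip2* (WT 3.25) and 0.15 for *Tnfrsf1a* (WT 0.20). In replicate 3 of SOD1G93A LPS microglia *Traf1* had 1697 normalized counts (against 3102 and 3117) and *Tnfaip3* 3147 (against 4614 and 4850). *Tnfaip2* there had 3272 (against 3311 and 3264). Of 10 microglia markers 7 were called lower, of 9 astrocyte markers tested 2 higher and of 4 oligodendrocyte lineage genes tested 2 lower. The part of these shifts in the values was not tested. Whether the LPS response itself differed between genotypes was not tested, since that needs quiescent SOD1G93A microglia.

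In WT astrocytes the stimulus contained recombinant TNFα. Of the 10 genes, 6 rose, against 6% of the 12336 genes tested, and 0 fell, against 5.54%. *Birc3*, 1 of the 6, had a mean under 10 at rest and reached the test only through its counts in activated astrocytes. Markers of other cell types moved too. Summed oligodendrocyte lineage genes went from 2872 to 1072 CPM, mainly through *Olig1* (1799 to 531) and *Olig2* (868 to 350), and of the 5 others tested 1 was higher and 4 did not pass an adjusted p under 0.05. Endothelial genes went from 10.7 to 146 CPM (of which *Flt1* was 144), pericyte and fibroblast genes from 12.5 to 50 and neuron genes from 19.3 to 41.5. Of the 10 astrocyte markers 2 were called lower and 0 higher, and 7 were lower and 1 higher at an adjusted p under 0.05. The part of a shift in cell composition in the values was not tested. The ligand was not among the 6 genes that rose. *Tnf* had 11.7, 30.2 and 30.4 normalized counts in quiescent and 28.0, 38.5 and 27.6 in activated astrocytes. The groups overlapped, and the log2 difference of 0.47 (SE 0.36) did not pass (adjusted p = 0.34, limma).

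The astrocyte receptors behaved in the opposite way to those of microglia. *Tnfrsf1a* had 447, 482 and 526 normalized counts in quiescent and 1183, 1206 and 1161 in activated astrocytes. All activated libraries were above all quiescent ones, a 2.44-fold rise (log2 1.29, SE 0.09, adjusted p = 7.6e-07, limma). *Tnfrsf1b* had 62.9, 82.7 and 140 in quiescent and 105, 168 and 95.7 in activated astrocytes. Its groups overlapped and the log2 difference of 0.40 (SE 0.28) did not pass (adjusted p = 0.30, limma).

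*Tnfaip2* gave the largest change of the 10 genes in astrocytes. Its quiescent libraries had 48.9, 57.7 and 71.5 normalized counts and its activated libraries 2955, 2713 and 2754. The groups were widely separated and the rise was 47.0-fold (log2 5.56, SE 0.13, adjusted p = 6.5e-10, limma). *Tnip1* had 107, 138 and 149 in quiescent and 562, 543 and 556 in activated astrocytes, a 4.23-fold rise. *Tnfaip3* had 16.3, 42.0 and 48.6 and then 247, 224 and 254, a 7.28-fold rise in which replicate 1 was the low quiescent library. Neither gene overlapped between states. The share of all genes tested that were apart is not given, and 4722 of 12336 passed an adjusted p under 0.05 in either direction (limma).

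Of the adaptors and ligases, *Birc3* had 4.66, 3.94 and 12.3 normalized counts in quiescent and 74.2, 78.5 and 67.3 in activated astrocytes. From this low level the size of the rise depends on the pseudocount (log2 2.77 with 5 and 3.47 with 0.5), so no fold is given, and the gene was also called by limma with no filter on low values. *Traf2* had 103, 93.2 and 114 and then 226, 213 and 233, a 2.16-fold rise. Both were without overlap. *Birc2* had 193, 139 and 90.7 in quiescent and 189, 178 and 197 in activated astrocytes, where replicate 1 of the quiescent group lay among the activated libraries (log2 0.48, adjusted p = 0.11, limma). *Traf1* had 0, 9.19 and 22.9 and then 19.3, 23.5 and 12.1, overlapping values near the limit of detection (log2 1.58, SE 0.92, adjusted p = 0.21, limma).

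*Tnf*, *Tnfrsf1b* and *Traf1* were low in astrocyte cultures, and their values are set beside the microglia markers in the same libraries. In quiescent WT astrocytes the summed markers were 154, 210 and 270 CPM in replicates 1 to 3. *Tnf* had 5, 23 and 57 reads there, *Tnfrsf1b* 27, 63 and 263 and *Traf1* 0, 7 and 43. Reads follow depth, which was 2016139, 3637657 and 9258718. Scaled for depth, *Tnf* was 1.51, 3.86 and 3.76 RPKM, *Tnfrsf1b* 3.51, 4.54 and 7.44 and *Traf1* 0, 0.218 and 0.527. In quiescent SOD1G93A astrocytes the markers summed to 338, 359 and 239, with 108, 86 and 23 reads of *Tnf* (6.92, 7.24 and 4.26 RPKM). The library with the lowest marker sum in each of these groups had the fewest reads and the lowest RPKM of *Tnf* and was also the shallowest. In activated WT astrocytes replicate 2 had the highest marker sum (296, against 184 and 163) and the highest *Tnf* and *Tnfrsf1b* values. The most abundant microglia marker by group mean in quiescent WT astrocytes was *Csf1r*, at 48.4 CPM. The part of microglia in the astrocyte values of these 3 genes was not tested.

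**Figure D2:**
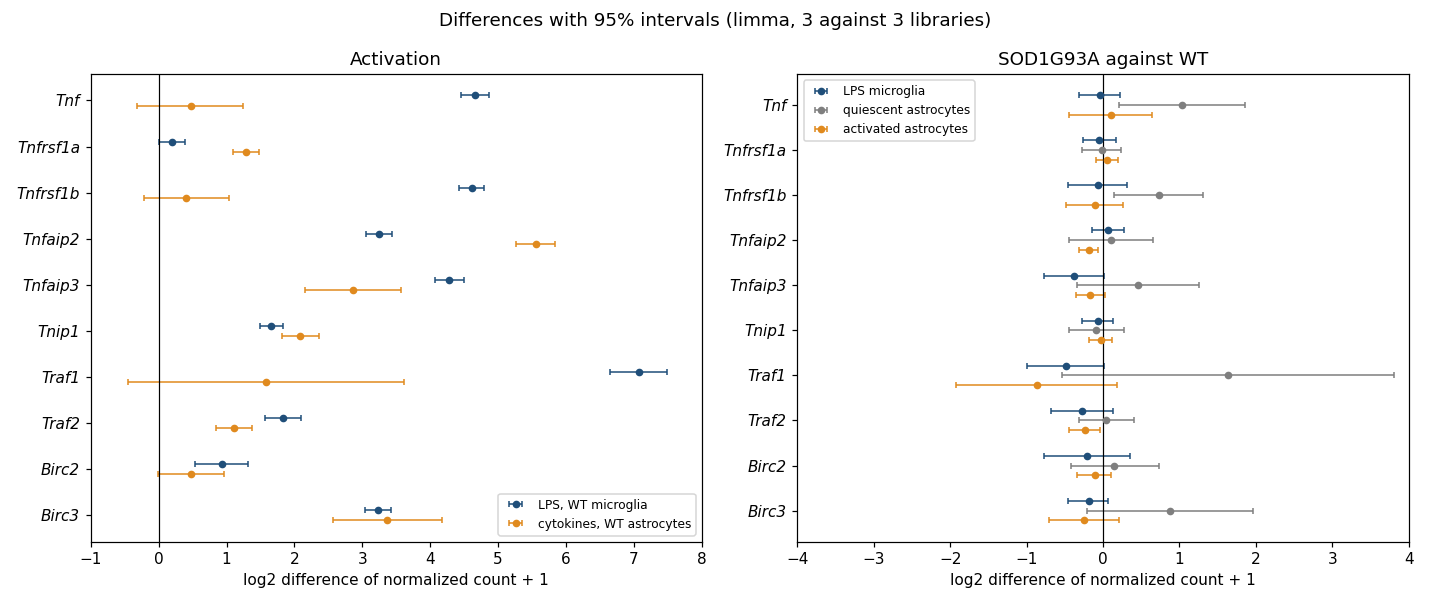
Log2 differences of normalized count + 1 for each gene, with 95% intervals from limma, for activation against rest (left panel) and SOD1G93A against WT (right panel), 3 libraries against 3 in each. In the left panel *Traf1* has the largest difference after LPS (7.07) and *Tnfaip2* the largest after cytokines (5.56), and in the right panel no gene passes an adjusted p under 0.05.

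Before any stimulus the cell types already differed. When the 12 WT libraries were scaled and fitted together, 7 of the 10 genes were called higher in quiescent microglia than in quiescent astrocytes, against 22% of the 12334 genes tested, and 0 were called lower, against 25.6%. *Birc3* was 1 of the 7, with jointly scaled means of 146 in quiescent microglia and 6.14 in quiescent astrocytes, under the mean of 10 needed for a test, which it reached only through the other groups. Its fold depends on the pseudocount and is not given. *Tnf* was 13.2-fold and *Tnfrsf1b* 12.5-fold higher in microglia. *Tnfaip3*, *Tnip1* and *Tnfaip2* were 10.4-, 7.5- and 6.96-fold higher in microglia and *Tnfrsf1a* 2.42-fold. At an adjusted p under 0.05, 9 were higher, against 37.8%. They include *Traf1*, whose jointly scaled mean in quiescent astrocytes was 9.50. By the same rule *Birc2* alone of the 10 was lower, 1.98-fold (adjusted p = 0.00075, limma), against 40.9%. Scaling by total reads moved all genes tested by a median of -0.54 on the log2 scale in this comparison. With it *Birc2* was called lower (log2 -1.52, adjusted p = 2.3e-05), *Tnfrsf1a* missed the 2-fold limit (0.73) and *Traf2* did not pass (0.10, adjusted p = 0.46). Isolation, age and medium changed with cell type and cannot be told apart from it.

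The difference between the responses was tested in the same fit. It compares LPS in microglia with IL-1α, TNFα and C1q in astrocytes, so cell type and stimulus cannot be told apart. By both limits 3 of the 10 genes rose more in microglia, against 6.73% of genes tested, and 2 rose more in astrocytes, against 8.44%. The response was larger in microglia for *Tnf* (log2 difference 4.22, SE 0.38, adjusted p = 7.1e-07, limma), *Tnfrsf1b* (4.23, SE 0.34) and *Traf1* (5.59, SE 1.05, adjusted p = 0.00064). For *Traf1* the quiescent WT astrocyte libraries had 0, 7 and 43 reads. Its call was lost with a pseudocount of 0.5 (adjusted p = 0.0049, limma) and with scaling by total reads (0.0016). The *Traf1* call was also lost without any single one of 10 of the 12 libraries, at adjusted p of 0.0012 to 0.0026 (limma). In these 10 fits the log2 difference stayed at 5.27 to 5.79. The other libraries were replicates 1 and 3 of quiescent WT astrocytes. The response was larger in astrocytes for *Tnfaip2* (log2 difference -2.28, SE 0.17, adjusted p = 1.3e-07) and *Tnfrsf1a* (-1.07, SE 0.13, adjusted p = 1e-05). Without replicate 1 of quiescent WT astrocytes the latter no longer passed the 2-fold limit. *Tnfaip3* and *Traf2* passed only an adjusted p under 0.05, with differences of 1.45 and 0.75, which made 5 genes higher in microglia against 20.1%. *Tnfaip3* was called by DESeq2 (1.75) and edgeR (1.72), with a pseudocount of 5 (1.61) and without replicate 1 of quiescent WT astrocytes (1.93). *Tnip1* (-0.39), *Birc2* (0.48) and *Birc3* (-0.08) did not pass, but *Tnip1* passed an adjusted p under 0.05 with scaling by total reads (-0.61, adjusted p = 0.0019). Markers differed in this contrast too. Of 10 microglia markers 6 were called lower and 0 higher, and of 9 astrocyte markers tested 4 were called higher and 0 lower. Of 7 oligodendrocyte lineage genes tested 2 were called in each direction, and of 3 endothelial genes 1 lower. The part of cell composition in the values was not tested.

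Genotype was then compared within each state. In quiescent astrocytes 0 of the 10 genes were called in SOD1G93A against WT, and 0% of the 12271 genes tested were. At an adjusted p under 0.05 it was again 0, against 0.057% (limma, where 1068 genes had an unadjusted p under 0.05). DESeq2 called 7 genes and edgeR 0 by both limits, and 55 and 7 at an adjusted p under 0.05, none of them among the 10. *Tnf* had 12.3, 31.4 and 31.5 normalized counts in WT and 57.1, 58.0 and 34.1 in SOD1G93A astrocytes. It was the only one of the 10 genes whose SOD1G93A libraries were all above the WT libraries, by a small margin for replicate 3, against 7.07% of genes tested. The difference was 2.05-fold with a 95% interval of 1.15 to 3.63, and its adjusted p was 0.49 (limma). *Tnfrsf1b* had 66.3, 86.1 and 146 in WT and 178, 169 and 127 in SOD1G93A, overlapping values (log2 0.73, adjusted p = 0.48, limma). These are the genes for which microglia markers were given above, and the median log2 difference of the 9 microglia markers tested was 0.57, with none past an adjusted p under 0.05. The part of microglia in the difference was not tested.

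In activated astrocytes 0 of the 10 genes were called between genotypes, against 0.645% of 12098 genes tested, and 0 passed an adjusted p under 0.05, against 7.27%. *Tnfaip2*, *Tnfaip3* and *Traf2* had all SOD1G93A libraries below all WT libraries, which 11.6% of genes tested did. *Tnfaip2* had 2546, 2341 and 2361 normalized counts in WT and 2154, 2170 and 2042 in SOD1G93A. The groups were apart by a small difference (0.879-fold, log2 -0.19, SE 0.06, adjusted p = 0.059, limma), and DESeq2 gave an adjusted p of 0.048 where edgeR gave 0.054. With scaling by total reads limma gave -0.23 and an adjusted p of 0.017. *Tnfaip3* had 213, 193 and 218 in WT and 190, 181 and 185 in SOD1G93A, and *Traf2* had 194, 183 and 200 and then 173, 165 and 151. Their log2 differences were -0.17 and -0.24 with adjusted p of 0.34 and 0.16 (limma). For *Tnf* the difference was 0.10 (95% interval -0.44 to 0.64) and for *Tnfrsf1a* 0.05 (-0.09 to 0.19). No marker was called in this comparison. At an adjusted p under 0.05, 4 of 9 astrocyte markers tested were higher and 2 lower, and of 7 oligodendrocyte lineage genes tested 1 was higher and 2 lower. Of the endothelial, pericyte and fibroblast, and neuron genes 1 each was lower, and of 9 microglia markers tested none passed. The part of cell composition in the values was not tested.

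In LPS microglia 0 of the 10 genes were called between genotypes, against 0% of 10679 genes tested, and 0 passed an adjusted p under 0.05, against 0.00936% (limma, where 930 genes had an unadjusted p under 0.05). DESeq2 called 3 genes and edgeR 0 by both limits, and 18 and 1 at an adjusted p under 0.05, none of them among the 10. *Tnf* had 6259, 5859 and 5346 normalized counts in WT and 6003, 5879 and 5060 in SOD1G93A microglia. The ranges overlapped over most of their width, and the difference was 0.969-fold with a 95% interval of 0.805 to 1.17. *Traf1*, *Tnip1* and *Birc3* had all SOD1G93A libraries below all WT libraries, against 9.09% of genes tested, and *Tnfaip2* had them all above, also against 9.09%, although its ranges overlapped in RPKM. In RPKM *Tnfaip3* was also apart, with SOD1G93A below WT. *Traf1* had 3762, 3222 and 3073 in WT and 2887, 2922 and 1598 in SOD1G93A microglia. Its lowest value was that of replicate 3 of SOD1G93A, the library that stood apart, and the log2 difference of -0.49 (SE 0.22) did not pass (adjusted p = 0.58, limma). In that replicate *Tnfaip3* (2963, against 4294 and 4546), *Tnfrsf1b* (15575, against 22477 and 21991), *Traf2* (267, against 390 and 433), *Birc2* (56.0, against 112 and 91.7) and *Birc3* (883, against 1121 and 1112) were also low. *Tnfaip2* there was 3081, against 3080 and 3059. Summed microglia markers were 3284 ± 29.7 CPM in WT and 4180 ± 945 in SOD1G93A LPS microglia, with 5268 in replicate 3 of SOD1G93A. The median log2 difference was 0.36 for the 10 microglia markers and -0.19 for the 9 astrocyte markers tested, against 0.01 over all genes. None of these markers passed an adjusted p under 0.05 (limma). The part of cell composition in the values was not tested.

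Whether the cytokine response of astrocytes differed by genotype was tested over all 12 astrocyte libraries. By both limits 0 of the 10 genes differed, against 0% of 12269 genes tested, and 0 at an adjusted p under 0.05, against 0.277% (limma, where 1018 genes had an unadjusted p under 0.05). DESeq2 called 21 genes and edgeR 4 by both limits, and 69 and 33 at an adjusted p under 0.05, none of them among the 10. The estimate was closest to 0 for *Tnip1* (log2 0.05, 95% interval -0.32 to 0.42) and *Tnfrsf1a* (0.07, -0.23 to 0.36). It was negative for the 8 other genes, from -0.27 for *Birc2* to -2.47 for the sparsely counted *Traf1* (95% interval -5.03 to 0.09). The intervals of *Tnfrsf1b* (-1.59 to -0.09) and *Birc3* (-2.21 to -0.02) did not reach 0 before adjustment, with adjusted p of 0.54 and 0.59 (limma). In the same test the 9 microglia markers tested had a median of -0.73 and the 10 astrocyte markers a median of 0.43, against 0.00 over all genes. The part of microglia in the estimates of *Tnf*, *Tnfrsf1b* and *Traf1* was not tested.

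Other genes of the TNF system were followed in lists chosen by function. Of all genes tested, 10.2% rose and 10.6% fell after LPS in microglia and 6% rose and 5.54% fell after cytokines in astrocytes, with median log2 differences of 0.00 and 0.01. A gene absent at rest reaches the mean count needed for a test only when it rises, so counts and medians of the lists are given for genes with a mean of at least 10 in both states. The shares over all genes tested are not limited in this way. Of 17 other ligands of the TNF superfamily 3 had this in microglia, of which 0 rose and 1 fell by limma (median 0.19), while 3 others reached the limit only after LPS. *Tnfsf15* went from 1.18 ± 1.06 to 163 ± 50.2 normalized counts, *Tnfsf10* (TRAIL) from 0.760 ± 0.761 to 54.0 ± 16.7 and *Lta* (lymphotoxin α, which shares TNF's receptors) from 0.674 ± 0.770 to 24.1 ± 13.9 (SD, n = 3). These had at most a few reads at rest, so their folds depend on the pseudocount and are not given. *Tnfsf12* (TWEAK) fell 5.37-fold, from 321 ± 25.5 to 59.0 ± 5.09 (adjusted p = 5.1e-08, limma). In astrocytes 3 ligands had the counts in both states and 1 rose (median -0.10), which was *Tnfsf12*, from 48.9 ± 12.2 to 120 ± 15.

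Of 26 other receptors, 10 had the counts in both states of microglia, where 2 rose and 2 fell (median -0.18). *Cd40*, the costimulatory receptor of antigen-presenting cells, rose 141-fold from 13.7 ± 1.05 to 2061 ± 194 normalized counts (adjusted p = 2.4e-11, limma). The death receptor *Fas* rose 6.15-fold, *Tnfrsf9* (4-1BB), low at rest, went from 0.677 ± 1.17 to 20.6 ± 2.87, and *Tnfrsf23* and *Tnfrsf21* fell 2.38- and 2.01-fold. In astrocytes 10 had the counts in both states, where 3 rose and 0 fell (median 0.69). They were *Fas* (6.74-fold, 31.0 ± 12.4 to 205 ± 28.7), the TRAIL receptor *Tnfrsf10b* (3.83-fold) and the TWEAK receptor *Tnfrsf12a* (2.62-fold). The decoy receptor *Tnfrsf11b*, low at rest, went from 1.15 ± 1.08 to 19.3 ± 4.22. *Fas* thus rose in both cell types.

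Of 36 genes of the receptor complex and its ubiquitin enzymes, 35 had the counts in both states of microglia, where 5 rose and 0 fell (median 0.30), and 33 in astrocytes, where 2 rose and 1 fell (median 0.24). In microglia the kinase *Ikbke*, low at rest, went from 6.75 ± 5.86 to 486 ± 43.5 normalized counts, and the largest other rises were those of the necroptosis effector *Mlkl* (34.8-fold) and *Cflar*, which restrains caspase 8 (4.63-fold, 1251 ± 102 to 5832 ± 900). In astrocytes the kinase *Map3k5* and the protease *Casp8* rose 2.97- and 2.94-fold and *Traf4* fell 2.08-fold. Of 7 genes of TNF release, *Rhbdf2*, a partner of the TNF-cleaving protease, rose in both, 2.33-fold in microglia and 5.14-fold in astrocytes, and *Timp3*, an inhibitor of that protease, fell 3.13-fold in astrocytes (medians -0.11 and 0.41). No other gene of this list was called.

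Of 11 genes that control TNF mRNA, all had the counts in both states of microglia, where 3 rose and 1 fell (median 0.07), and 10 in astrocytes, where 1 rose and 0 fell (median -0.02). The endonuclease *Zc3h12a* rose 26.8-fold in microglia and, low at rest in astrocytes, went from 8.14 ± 4.83 to 144 ± 14.1 there. *Zfp36* (tristetraprolin), which promotes decay of TNF mRNA, rose 4.48-fold in microglia (577 ± 39.1 to 2586 ± 166) and 3.07-fold in astrocytes (70.6 ± 6.57 to 219 ± 14.9). *Mapkapk2*, the kinase that restrains tristetraprolin, rose 3.54-fold and the related *Zfp36l2* fell 5.80-fold in microglia. Of 6 other genes named as TNF-induced proteins, 3 were tested in microglia and none was called (median -0.01), and 4 were tested in astrocytes (median -0.60). There *Tnfaip8* rose 3.38-fold, and *Tnfaip6* and *Tnfaip8l1* fell 2.18- and 2.77-fold, so the name did not go with the direction.

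The 5 genes whose means over the 7 conditions were most like those of *Tnf*, among 12380 genes on the log2 scale, were *Tnfrsf1b* (Pearson's r = 0.9996), *Malt1* (0.9985), *Hcar2* (0.9984), *Procr* (0.9983) and *Wfdc17* (0.9980). The 7 means fall into LPS microglia, quiescent microglia and astrocytes, so r describes these levels mainly. *Malt1*, a protease of NF-κB signalling, had jointly scaled counts of 226 ± 53.5 in quiescent WT, 2471 ± 378 in WT LPS and 2319 ± 274 in SOD1G93A LPS microglia, and astrocyte means of 43.8 to 57.7. *Hcar2*, a receptor for hydroxybutyrate and niacin, went from 182 ± 28.6 to 5197 ± 89.7 with LPS in WT. Of the other 8 genes described here, *Traf1* was the most like *Tnf* (0.9781), while *Tnfaip2* (0.5598) and *Tnfrsf1a* (0.5696) were unlike it and *Birc2* was negative (-0.4488).

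Promoter sequence was read for the 10 genes from RefSeq (GRCm38.p6), since several of them rose together. All 10 had entries, 12 in all, and the 250 bases before each start were searched on both strands for the NF-κB consensus of 10 bases, named here without its letters, and for the AP-1 site TGANTCA. The NF-κB consensus was found for 3 of the 10 genes (*Tnfaip2*, *Tnfaip3* and *Tnip1*), against 7.25% of 32851 promoters, and the AP-1 site for 1 (*Tnfaip3*), against 6.75%. These shares count promoter entries and not genes, and the other *Tnfaip3* entry had no match. The *Tnfaip2* match lies in the 192 bases of its window that are annotated as *Tnfaip2* exon. The 3 genes with the NF-κB consensus rose in both cell types, and so did *Traf2* and *Birc3*, which had no match. Shown are the windows of *Tnip1* (chr11:54962941-54963190, minus strand), of *Tnfaip3* (chr10:19015411-19015547, minus strand, the part outside annotated exons) and, as the ligand without a match, of *Tnf* (chr17:35202008-35202257, minus strand). In GENCODE M21 the *Tnf* and *Tnip1* windows overlap no gene, and the *Tnfaip3* stretch lies inside the annotated *Tnfaip3* gene and outside its exons. Sequences run 5′ to 3′ along the transcribed strand, and capitals mark the matches, of which the first in *Tnfaip3* is the AP-1 site and the 3 in *Tnip1* overlap one another.
Tnip1: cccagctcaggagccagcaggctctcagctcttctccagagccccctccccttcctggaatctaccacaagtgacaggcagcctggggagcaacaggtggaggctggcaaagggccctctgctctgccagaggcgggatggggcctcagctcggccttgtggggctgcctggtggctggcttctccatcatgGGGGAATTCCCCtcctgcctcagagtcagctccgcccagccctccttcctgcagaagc
Tnfaip3: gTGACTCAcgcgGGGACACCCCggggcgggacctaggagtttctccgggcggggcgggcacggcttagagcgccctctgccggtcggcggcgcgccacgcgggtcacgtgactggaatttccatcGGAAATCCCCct
Tnf: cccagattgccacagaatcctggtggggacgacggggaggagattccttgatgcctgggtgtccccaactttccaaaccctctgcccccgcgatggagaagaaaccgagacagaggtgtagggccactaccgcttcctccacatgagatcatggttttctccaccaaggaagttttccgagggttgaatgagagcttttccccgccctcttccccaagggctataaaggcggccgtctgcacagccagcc
In *Tnip1* the matches begin 58, 57 and 56 bases before the start. In *Tnfaip3* the NF-κB matches begin 125 and 12 bases and the AP-1 match 136 bases before it. A match is a run of letters and says nothing of binding, and the absence of one says only that these letters are not in the window.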

How the data were processed

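The authors made strand-specific paired-end libraries, used STAR 2.7.3a for alignment (mm10), RSEM for counting and, in R 3.6.1, DESeq2 for group comparisons. They deposited 6 tables, each with a signal per library, the normalized count, which is reads divided by a DESeq2 size factor. The other deposited columns hold the authors' fold changes and p-values and were not used. Whole reads were recovered for 100% of values (tolerance 1e-06 reads), and on them DESeq2 1.42.0 and edgeR 4.0.16 called 2395 and 2357 genes after LPS in WT microglia.

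Each table was tested with limma 3.58.1 (intensity trend, R 4.3.3) on log2(normalized count + 1), for genes with a mean of at least 10, with Benjamini-Hochberg adjustment over all genes tested. Fits across tables used recovered reads rescaled by median-of-ratios factors. Exon lengths and positions came from GENCODE M21 (GRCm38), which matched 23376 of 24411 symbols; the authors' annotation is not given in the sources used here. The scripts were tested on simulated data. The members and gene lists were chosen with earlier results of these data known. The text names all 10 genes, in each list up to 3 called genes with the largest rise and 3 with the largest fall per activation (all where 5 or fewer were called), the 5 genes most like Tnf, and 1 or 2 of the most abundant markers of each cell type compared. Alternatives were other pseudocounts (0.5 and 5), no filter, TMM scaling, scaling by total reads (added after seeing the data), DESeq2, edgeR, a replicate block, a looser limit and leaving out each library.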

Additional observations from a re-analysis of the deposited data

Results flagged for a closer look

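The estimates for *Tnfaip2* between the genotypes had opposite signs in activated astrocytes and in LPS microglia. Every SOD1G93A library was below every WT library in activated astrocytes (log2 difference -0.19), where 11.6% of genes tested were apart in that direction. In LPS microglia every SOD1G93A library was above every WT library (log2 difference 0.06, 95% interval -0.15 to 0.27), where 9.09% of genes tested were. In RPKM the ranges in LPS microglia overlapped. With limma on the deposited scaling neither difference passed an adjusted p under 0.05. In activated astrocytes it passed with DESeq2 (0.048) and with limma after scaling by total reads (-0.23, adjusted p = 0.017). The difference between the genotype effects in the 2 cell types was not tested.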

How the results depend on the processing

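The number of the 10 genes called was 8 after LPS in WT microglia and 6 after cytokines in WT astrocytes under both pseudocounts, no filter, TMM scaling, scaling by total reads (chosen after seeing the data), DESeq2, edgeR and the replicate block, and was also 8 and 6 without any one library. It was 0 in the 3 genotype comparisons and the genotype by state interaction under the same alternatives. For quiescent microglia against astrocytes it was 7 to 9 and for the difference of responses 4 to 5 when leaving out a library; DESeq2 gave 8 in the former, and the latter was 4 with a pseudocount of 0.5 or scaling by total reads and 6 with a pseudocount of 5, DESeq2 or edgeR (5 otherwise). None of 1527 alternative values of single genes turned a called difference around; 34 changed sign, none larger than 0.46 at first or 0.53 afterwards on the log2 scale, and their lowest adjusted p was 0.12. At an adjusted p under 0.05 with any fold, all genes called numbered 6185 for LPS in WT microglia, 4722 for cytokines in WT astrocytes, 7, 879 and 1 for genotype in quiescent astrocytes, activated astrocytes and LPS microglia, 5883 for SOD1G93A LPS against WT quiescent microglia, 34 for the interaction, 9699 between quiescent cell types and 5052 between responses. With both limits DESeq2 called 7 genes for genotype in quiescent astrocytes, 3 in LPS microglia and 21 for the interaction, where edgeR called 4 and a pseudocount of 5 gave 3; limma gave 0 in each. The cause was not tested.

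Scaling by total reads moved the median gene by -0.54 between quiescent cell types and by -0.21 in the LPS response of WT microglia and between responses. In SOD1G93A LPS against WT quiescent microglia it took *Birc2* from an adjusted p of 0.039 to 0.11.

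Leaving out 1 library gave 1991 to 2334 called genes for LPS in WT microglia (2263 with all), 1087 to 1547 for cytokines in WT astrocytes (1424), 67 to 81 for genotype in activated astrocytes (78), 5570 to 5945 between quiescent cell types (5876), 1593 to 1848 between responses (1871), 0 to 6 for the interaction (0; 6 without replicate 1 and 1 without replicate 3 of quiescent WT astrocytes) and 0 for genotype in quiescent astrocytes and in LPS microglia. For SOD1G93A LPS against WT quiescent microglia, whose alternatives were chosen after seeing the data, it gave 1263 to 2187 (1718), with 7 to 9 of the 10 genes. With replicate number as a block, 2201 genes were called for LPS in WT microglia, 1423 for cytokines, 100 for genotype in activated astrocytes, 1588 for SOD1G93A LPS against WT quiescent microglia, 5848 between quiescent cell types, 1854 between responses and 0 in the others. The labels do not say whether same-numbered samples shared a preparation. Their deviations correlated at -0.44 to 0.06, and not every sample correlated best with its own number. With 3 libraries a group these correlations cannot decide whether the samples were paired. Depth limits *Traf1*, *Birc3* and *Tnf* in astrocytes, which had 0 to 108 reads per quiescent library.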
